A study of Mus musculus with 4 samples.

Results

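The genes described here are 10 protein-coding genes of the mouse mitochondrial DNA, COX1, COX2, COX3, CYTB, ND1, ND2, ND4, ND4L, ND5 and ATP8, measured in neural stem/progenitor cells (NSPCs) with and without the PARP inhibitor PJ34. They were chosen by name, as the probes that carry these upper-case symbols in the array files, and selected on their log2 ratios of PJ34 over control, which were known from earlier work on these arrays, so their values are a description and carry no test. Each gene had 1 probe with 1 spot, 10 of the 55681 probes on the array, and all 10 were among the 27036 probes kept, which carry 19678 gene or transcript names. For a probe to be kept, both arrays of 1 genotype or the other needed a signal well above background in 1 color or both.

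The study compared untreated NSPCs with NSPCs given 20 μM PJ34, in wild-type cells and in Trp53-/- cells, which lack the tumor suppressor p53. The study's methods give Slc:ICR embryos at embryonic day 13.5 as the source of the NSPCs, and the labels give that day for all 4 arrays. The cells were cultured in neurosphere medium with B-27, EGF and FGF. The Trp53-/- mutants derived from a separate stock of heterozygous mice, whose strain the methods do not state. A strain difference between the genotypes was not tested. How many embryos went into each RNA is not given in the sources used here. On each of 4 Agilent 2-color arrays, RNA of PJ34-treated cells carried Cy5 and RNA of untreated cells of the same genotype carried Cy3. There were 2 arrays of independently prepared RNA per genotype, and the dyes were not swapped, so a dye effect and a PJ34 effect cannot be told apart within a genotype.

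Mitochondrial DNA encodes a small set of membrane subunits of the respiratory chain, while the other subunits are encoded in the nucleus and imported. ND1, ND2, ND4, ND4L and ND5 belong to complex I, which takes electrons from NADH, CYTB to complex III, COX1 to COX3 to complex IV, the oxygen-reducing cytochrome c oxidase, and ATP8 to the ATP synthase. The mitochondrial RNA polymerase copies each DNA strand into long precursors that are cut into the separate RNAs. In bulk RNA, fewer mitochondria per cell, less RNA per mitochondrion and a different mix of cells cannot be told apart.

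The probes were 60 bases long and their sequences were the same in all 4 files. The 6 printed here are those of COX1, which stood apart on 1 array, COX2, for which the files give both a mitochondrial and a nuclear position, ND4 and CYTB, which had the highest wild-type mean and the lowest Trp53-/- mean after COX1, and, for comparison, ND6 from the opposite DNA strand and ND3, which was placed on a nuclear chromosome.
COX1: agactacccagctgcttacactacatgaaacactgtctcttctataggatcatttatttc
COX2: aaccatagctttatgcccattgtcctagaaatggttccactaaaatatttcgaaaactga
CYTB: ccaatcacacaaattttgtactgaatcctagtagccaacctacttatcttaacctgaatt
ND4: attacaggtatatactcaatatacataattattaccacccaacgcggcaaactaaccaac
ND6: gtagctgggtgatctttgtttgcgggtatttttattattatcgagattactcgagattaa
ND3: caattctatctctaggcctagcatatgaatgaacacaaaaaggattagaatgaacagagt

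On mm9, the build of the files, the COX1 probe lies at chrM:6650-6709, the CYTB probe at chrM:15099-15158 and the ND4 probe at chrM:11370-11429, all on the plus strand and in the same place in all 4 files. The other genes placed on chrM in all 4 files were ND1 (chrM:2898-2957), ND2 (chrM:4670-4729) and ND5 (chrM:13402-13461). The COX2 probe was placed at chrM:7619-7678 in 3 files and at chr1:24621739-24621798 on the minus strand in the file of wild-type replicate 1, whose annotation differed. COX3 (chrM:9072-9131), ND4L (chrM:10114-10173) and ATP8 (chrM:7870-7929) were likewise placed on chr1 in that file. With ATP6, 5 probes had both placements, and their spacing along chr1 mirrored that along chrM to within 1 base. Signal of these probes cannot be assigned to either placement, and 6 of the 10 probes had only the mitochondrial one. No genome of this build was used here, so how well each probe matches other loci was not tested.

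After normalization within each array, all 10 mitochondrial transcripts were higher in PJ34-treated than in control wild-type NSPCs on both arrays, and all 10 were lower in PJ34-treated than in control Trp53-/- NSPCs on both arrays. Each value is a log2 ratio, PJ34 over control, in which 1 is a 2-fold increase and -1 a 2-fold decrease. The median of the 10 genes was 0.68 in wild-type, or 1.61-fold, and -0.92 in Trp53-/-, or 1.90-fold lower, while the median of all kept probes was 0.03 in both. Of all kept probes, 38.7% lay above 0 on both wild-type arrays, 29.8% below 0 on both Trp53-/- arrays, and 4.84% did both. With median centring in place of loess, all 10 stayed higher in wild-type, but 7 of 10 were above 0 in Trp53-/-, where the gene median was 0.11 and that of all kept probes had moved to 0.57. Under that setting the 10 genes had a median of 1.47 in wild-type, against 0.42 for all kept probes and 1.01 for the brightest 1% of nuclear probes, which had 1.35 in Trp53-/-.

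The first group by role is complex I. For ND1, a subunit near the quinone-binding site, the log2 ratios were 0.53 and 0.72 on wild-type replicates 1 and 2 and -0.55 and -1.29 on Trp53-/- replicates 1 and 2. For ND2, one of the proton-pumping subunits, they were 0.56 and 0.87 in wild-type and -0.56 and -1.28 in Trp53-/-. In both genes replicate 2 was farther from 0 in either genotype, and the genotypes did not overlap.

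ND4, another proton-pumping subunit, had 0.61 and 1.18 in wild-type and -0.50 and -1.24 in Trp53-/-. Its wild-type mean of 0.90 ± 0.40 (SD, n = 2) was the highest of the 10 genes. ND4L, a small subunit encoded next to ND4, had 0.43 and 0.92 in wild-type and -0.50 and -0.99 in Trp53-/-. ND5, a proton-pumping subunit too, had 0.35 and 1.04 in wild-type and -0.51 and -1.03 in Trp53-/-. ND4L and ND5 had the Trp53-/- means nearest to 0 of the 10 genes, at -0.75 ± 0.35 and -0.77 ± 0.36 (SD, n = 2).

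CYTB, the cytochrome b of complex III and the one subunit of that complex made in mitochondria, had 0.47 and 0.97 in wild-type and -0.77 and -1.55 in Trp53-/-. ATP8, a small membrane subunit of the ATP synthase, had 0.47 and 0.99 in wild-type and -0.45 and -1.40 in Trp53-/-. Both followed the order of the arrays seen for complex I, with the lowest ratio on Trp53-/- replicate 2.

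In complex IV, COX2, which carries the copper site that receives electrons from cytochrome c, had 0.29 and 1.00 in wild-type and -0.63 and -1.59 in Trp53-/-. COX3, a structural core subunit, had 0.37 and 0.81 in wild-type and -0.44 and -1.43 in Trp53-/-. COX1, the catalytic subunit, had 0.26 and 0.95 in wild-type and -0.70 on Trp53-/- replicate 1, in the range of the other 9 genes, which lay between -0.77 and -0.44 there. On Trp53-/- replicate 2 its ratio was -2.80, whereas the other 9 genes lay between -1.59 and -0.99. COX1 was thus separated from the other mitochondrial transcripts on 1 of 4 arrays, and its Trp53-/- mean of -1.75 ± 1.49 (SD, n = 2) rested on that array.

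**Figure D1:**
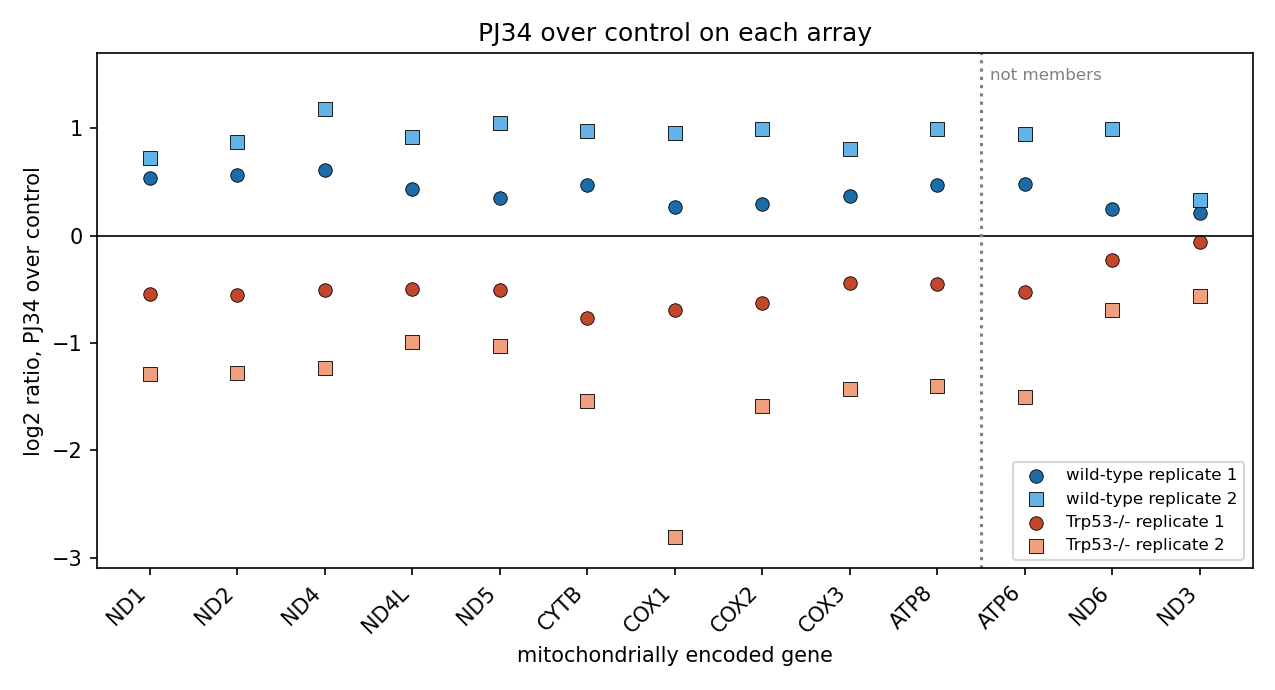
Log2 ratio of PJ34 over control (vertical axis) of each mitochondrially encoded gene (horizontal axis), with 1 point per array. All 10 genes left of the dotted line lie above 0 on both wild-type arrays and below 0 on both Trp53-/- arrays, and COX1 reaches -2.80 on Trp53-/- replicate 2.

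By array, the median of the 10 genes was 0.45 and 0.96 on wild-type replicates 1 and 2 and -0.53 and -1.35 on Trp53-/- replicates 1 and 2. The share of kept probes above the gene median was 5.09% and 0.296% on the wild-type arrays, and the share below it was 2.49% and 0.166% on the Trp53-/- arrays. The 10 genes varied little among themselves: their SD within an array was between 0.11 and 0.13 on 3 arrays and 0.51 on Trp53-/- replicate 2, or 0.21 there without COX1. The arrays of a genotype differed more than the genes of an array did.

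Bright nuclear probes gave a comparison at high intensity. The 268 kept nuclear probes in the top 1% by mean intensity had median ratios of 0.10 and 0.19 on the wild-type arrays and 0.17 and 0.14 on the Trp53-/- arrays. On wild-type replicate 1, COX1, COX2 and ND5 lay inside the 5% to 95% range of these probes, -0.26 to 0.37, and on the other 3 arrays all 10 genes lay outside that range of the array. Only COX1, COX2 and COX3 were themselves in the top 1% by mean intensity. The other genes were dimmer than these probes, down to ND5, with 13.7% of kept probes brighter. When the mitochondrial probes had no weight in the loess curve, the gene medians were 0.69 and -0.92. Before any normalization, the median Cy5 over Cy3 signal of the 10 probes was 1.99 and 5.22 on the wild-type arrays, against 1.48 and 2.21 for all kept probes. On the Trp53-/- arrays it was 1.77 and 0.924, against 2.17 and 1.92. The uncorrected signals thus lay on the same side of the median of kept probes as the normalized ones. The side of 0 in Trp53-/- depends on the normalization, since with median centring 7 of the 10 genes lay above 0 there. Under that setting all 10 still lay below the median of kept probes in Trp53-/-, the highest at 0.27 against 0.57.

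**Figure D2:**
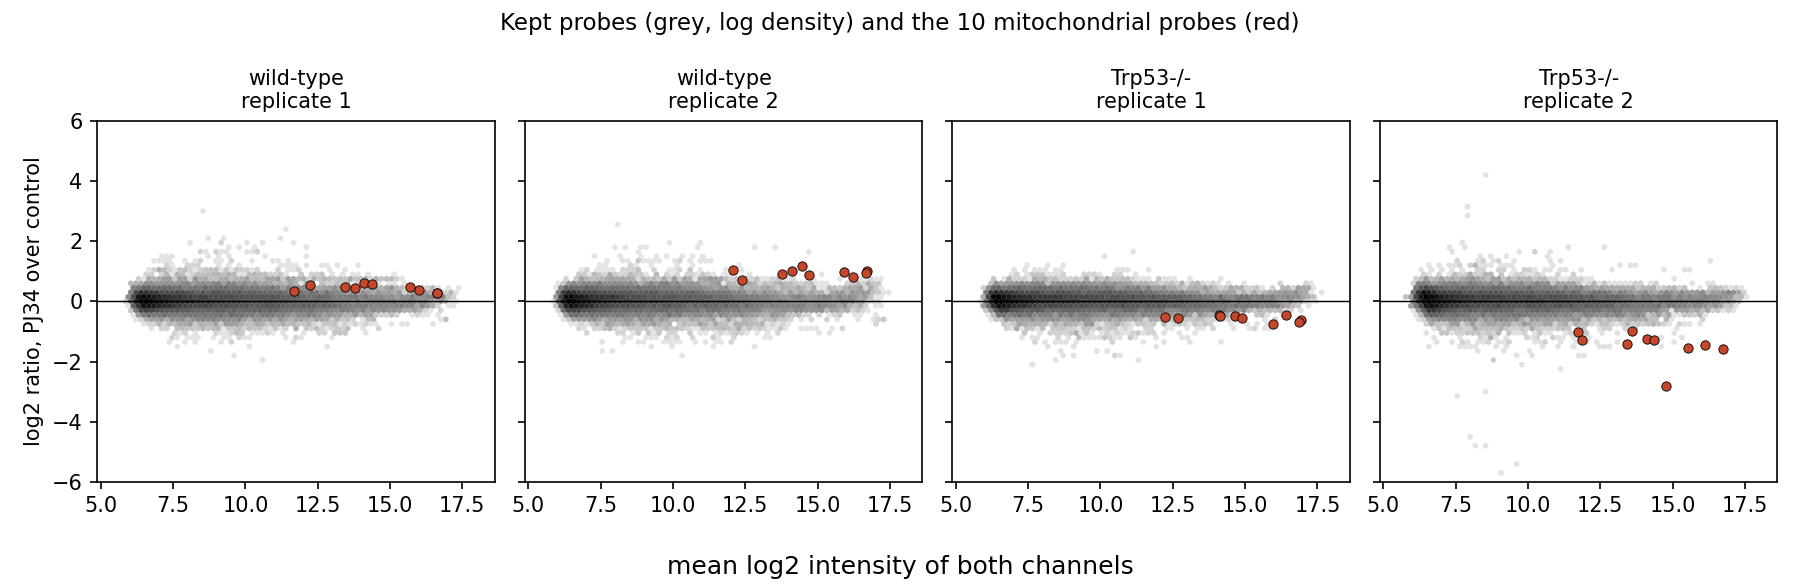
Log2 ratio of PJ34 over control (vertical axis) against mean log2 intensity of both channels (horizontal axis) on each array, with the 27036 kept probes as grey hexagons shaded by the log of their number and the 10 mitochondrial probes in red. The red points lie above 0 on both wild-type arrays, within the upper part of the grey cloud on replicate 1, and below 0 on both Trp53-/- arrays, at every intensity they cover.

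By the study's criteria (limma p and Storey q below 0.05 and more than 2-fold), 0 of the 10 genes were called higher in wild-type, where 0.263% of kept probes were. Without the limit on the fold 9 of the 10 passed, where 12.3% of kept probes did. In Trp53-/-, COX1, COX2 and CYTB were called lower, where 0.248% of kept probes were, and 0 were called higher, where 0.0703% were. These counts describe the members and nothing is read from them, because the ratios served to choose the genes.

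The ratio in wild-type minus that in Trp53-/- was between 1.42 (ND4L) and 2.36 (COX1), with a median of 1.65, or 3.13-fold. By the same criteria 10 of 10 genes were called higher in wild-type in this difference, where 0.399% of kept probes were (0.0222% in the other direction), and again nothing is read from the count. With an offset of 16, with the scanner software's ratios or with median centring, 0 of 10 were called in the difference. On 20.7% of kept probes both wild-type ratios lay above both Trp53-/- ratios. Without Trp53-/- replicate 2, the median difference was 1.24, with a range from 1.03 (COX3) to 1.49 (CYTB), and COX1 had 1.31. The median ratio in Trp53-/- was then -0.53, and 0 genes were called lower in Trp53-/-.

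The arrays also give a level in each color, after the arrays were brought to one distribution of mean intensities, and these levels share their channels with the ratios. In control cells the 10 transcripts were higher in Trp53-/- than in wild-type by a median of 0.60 on the log2 scale, and 8 of 10 did not overlap between genotypes, where 28.3% of kept probes had both Trp53-/- arrays above both wild-type arrays. In PJ34-treated cells they were lower in Trp53-/-, with a median difference of -1.02, and 9 of 10 did not overlap, where 26% of kept probes had both Trp53-/- arrays below both wild-type arrays. Over all kept probes the median level differences were 0.01 in control and 0.03 in PJ34-treated cells.

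The COX2 control level was 16.60 and 16.32 in wild-type and 17.18 and 17.39 in Trp53-/-, and its PJ34 level was 16.89 and 17.31 in wild-type and 16.55 and 15.80 in Trp53-/-. COX2 was thus high in untreated Trp53-/- cells and low in treated ones on both arrays. The CYTB control level was 15.60 and 15.46 in wild-type and 16.32 and 16.13 in Trp53-/-, and its PJ34 level was 16.07 and 16.44 in wild-type and 15.55 and 14.58 in Trp53-/-. CYTB separated the genotypes in both colors, in opposite directions.

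The ND4 control level was 13.84 and 14.03 in wild-type and 14.83 and 14.49 in Trp53-/-, and its PJ34 level was 14.46 and 15.21 in wild-type and 14.32 and 13.25 in Trp53-/-. Its PJ34 levels on wild-type replicate 1 and Trp53-/- replicate 1 were close to each other. The ATP8 control level was 13.25 and 13.82 in wild-type and 14.25 and 13.90 in Trp53-/-. Its PJ34 level was 13.72 and 14.82 in wild-type and 13.80 and 12.50 in Trp53-/-, the one gene whose PJ34 levels overlapped between genotypes.

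The COX1 control level was 16.63 and 16.29 in wild-type and 17.13 and 15.997 in Trp53-/-, so that its control levels overlapped between genotypes, as those of ND1 did. Its PJ34 level was 16.89 and 17.25 in wild-type and 16.43 and 13.19 in Trp53-/-. On Trp53-/- replicate 2, COX1 was low in both colors against its own level on the other 3 arrays. COX2 and COX3, of the same complex, had their highest control levels on that array. The remaining control levels, of ND2, ND4L, ND5 and COX3, were higher on both Trp53-/- arrays than on both wild-type arrays.

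In order of the mean over 2 arrays of the median level, PJ34-treated wild-type cells came first with 14.91 ± 0.46, then untreated Trp53-/- cells with 14.80 ± 0.23, untreated wild-type cells with 14.11 ± 0.15 and PJ34-treated Trp53-/- cells with 13.83 ± 0.85 (SD, n = 2 each). The first and the second of these overlapped between arrays, as did the third and the last. This order held for 8 of the 10 genes, and in COX2 and COX3 untreated Trp53-/- cells came first. Levels of different colors were set on one scale by the normalization, and a bias of the dyes in this order was not tested.

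**Figure D3:**
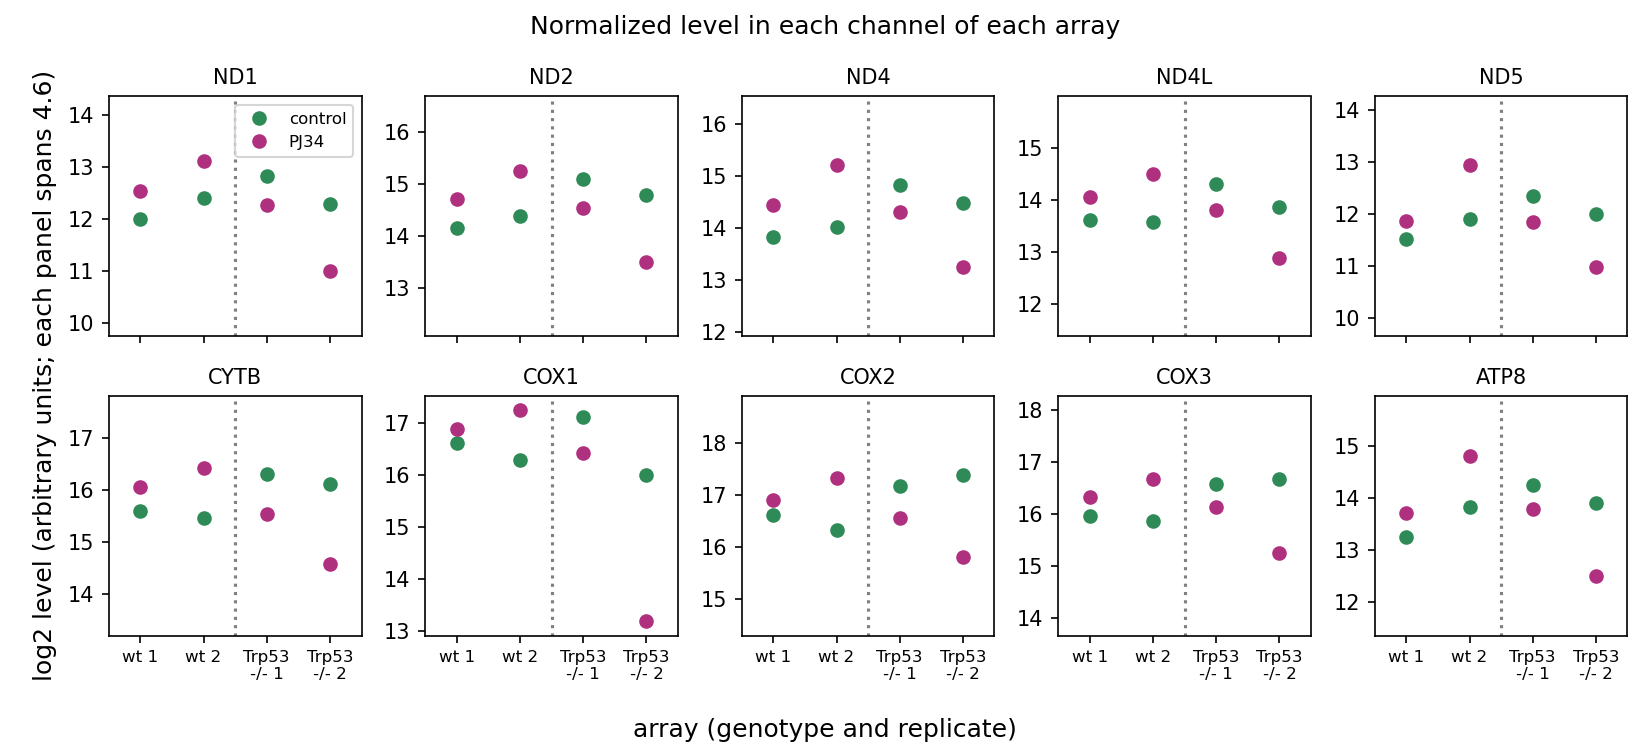
Normalized log2 level of each gene (vertical axis, arbitrary units, each panel with its own range) in the control (green) and PJ34 (purple) channel of each array (horizontal axis; wt is wild-type). The purple points lie above the green ones on both wild-type arrays and below them on both Trp53-/- arrays, and COX1 is low in both channels on Trp53-/- replicate 2.

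Other probes for mitochondrial genes gave a comparison outside the 10. ATP6, a proton channel subunit of the ATP synthase encoded next to ATP8, had 0.48 and 0.95 in wild-type and -0.53 and -1.51 in Trp53-/-. ND6, the complex I subunit encoded on the opposite strand (chrM:13552-13611, minus strand), had 0.25 and 0.99 in wild-type and -0.23 and -0.69 in Trp53-/-. Both followed the direction of the 10 genes, and the ND6 ratios in Trp53-/- were the closer to 0. ND6 control levels overlapped between genotypes, with 8.70 and 9.18 in wild-type and 9.11 and 8.39 in Trp53-/-.

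ND3, a further complex I subunit, was named after its values were seen. Its probe was placed at chr1:24619613-24619672 in all 4 files, within the stretch of chr1 that holds the other nuclear placements. It had 0.21 and 0.33 in wild-type and -0.06 and -0.57 in Trp53-/-, the same signs with smaller values. The difference was 0.59 for ND3, 1.08 for ND6 and 1.73 for ATP6.

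Among genes that are not mitochondrially encoded, the 5 whose 4 ratios were nearest to those of COX1 by root-mean-square distance were LOC676974 (0.62), Xist (0.65), Mxra7 (0.66), 1810037I17Rik (0.66) and 2610319H10Rik (0.74). COX2 and CYTB lay at 0.61 and 0.64 from COX1. Of these 5, Mxra7 alone had all 4 ratios on the side of 0 where COX1 had them, with 0.49 and 0.15 in wild-type and -0.66 and -1.79 in Trp53-/-. Over the 3 arrays other than Trp53-/- replicate 2, the other 9 genes lay within 0.27 of COX1 and COX2 at 0.05.

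Nuclear genes tied to the mitochondrial transcripts were read from 8 lists with 87 genes, of which 86 were kept. Of the 86, 0 were called by limma with the criteria above, where 0.436% of kept probes were called either way in wild-type, 0.318% in Trp53-/- and 0.422% in the difference. Without the limit on the fold, 19 were higher and 2 lower in wild-type (12.3% and 10.4% of kept probes), 11 higher and 2 lower in Trp53-/- (12% and 9.68%), and 0 passed in the difference (1.11% and 0.355%). The 86 genes had median ratios of 0.11 in wild-type and 0.05 in Trp53-/-, with a range from -0.33 to 0.49 over both genotypes. Median centring kept the higher genes above 0 and turned the lower ones positive, but the median of all kept probes was then 0.42 in wild-type and 0.57 in Trp53-/-. Against these medians the higher genes lay above, apart from Fastkd2 in Trp53-/- (0.23). Of the lower genes, Tfam (0.30) and Gabpb1 (0.37) lay below in wild-type. In Trp53-/-, Gabpb1 (0.55) lay below and Esrra (0.59) above.

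Of the nuclear subunits of the respiratory chain, 7 of complex I and 4 of complex II were measured, and 0 of these 11 passed in any contrast, with wild-type medians of 0.11 and 0.14 and Trp53-/- medians of 0.07 and 0.06. For complex III, 4 of 9 were higher in wild-type and 0 in Trp53-/-. The largest was Uqcr10, a small subunit, with 0.40 and 0.56 in wild-type and 0.23 and 0.22 in Trp53-/- (limma, wild-type 0.48 ± 0.09 SE, q = 0.00307). For complex IV, 6 of 10 were higher in wild-type and 1 in Trp53-/-, Cox6a1, which had 0.40 and 0.43 in wild-type and 0.34 and 0.31 in Trp53-/-. For the ATP synthase, 6 of 14 were higher in wild-type and 0 in Trp53-/-, among them Atp5mc3 of the membrane ring with 0.41 and 0.38 in wild-type and 0.26 and 0.11 in Trp53-/-. These genes, and those in the next paragraph, were named after their values were seen. Unlike the mitochondrial genes of the same complexes, Uqcr10, Cox6a1 and Atp5mc3 had ratios above 0 on all 4 arrays.

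Of 15 genes for mitochondrial transcription and replication, 2 were higher and 1 lower in wild-type, and 1 was higher in Trp53-/-. Polrmt, the mitochondrial RNA polymerase, had 0.36 and 0.32 in wild-type and 0.32 and 0.42 in Trp53-/- (limma, q = 0.015 and 0.0107), so it passed in both genotypes in the same direction. Tfam, which packages mitochondrial DNA and starts its transcription, had -0.48 and -0.17 in wild-type and 0.06 and -0.10 in Trp53-/- (limma, wild-type -0.33 ± 0.10 SE, q = 0.0283), and with median centring its wild-type mean was 0.30, against 0.42 for all kept probes.

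Of 20 genes for mitochondrial RNA processing and decay, 0 passed in wild-type and 7 were higher in Trp53-/-. Pnpt1, an exonuclease, had -0.08 and 0.26 in wild-type and 0.21 and 0.77 in Trp53-/- (limma, Trp53-/- 0.49 ± 0.13 SE, q = 0.0174). Lrpprc, which stabilizes mitochondrial mRNAs, had 0.15 and 0.23 in wild-type and 0.39 and 0.34 in Trp53-/- (limma, Trp53-/- 0.36 ± 0.09 SE, q = 0.0114). The limma differences between genotypes did not pass for Pnpt1 (-0.40 ± 0.19 SE, q = 0.286) or Lrpprc (-0.17 ± 0.13 SE, q = 0.444).

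Of 7 regulators of mitochondrial biogenesis, 1 was higher and 1 lower in wild-type, and 2 were higher and 2 lower in Trp53-/-. Ppargc1a, a coactivator of nuclear genes for mitochondria, was higher in both, with 0.37 and 0.45 in wild-type and 0.41 and 0.26 in Trp53-/-, and Gabpb1, a subunit of a transcription factor for such genes, was lower in both. Esrra, a nuclear receptor of the same program, had 0.17 and 0.08 in wild-type and -0.33 and -0.32 in Trp53-/-, where it passed (limma, q = 0.018), while its difference of 0.45 ± 0.13 SE did not (q = 0.103). With median centring the Trp53-/- mean of Esrra was 0.59, against 0.57 for all kept probes.

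**Figure D4:**
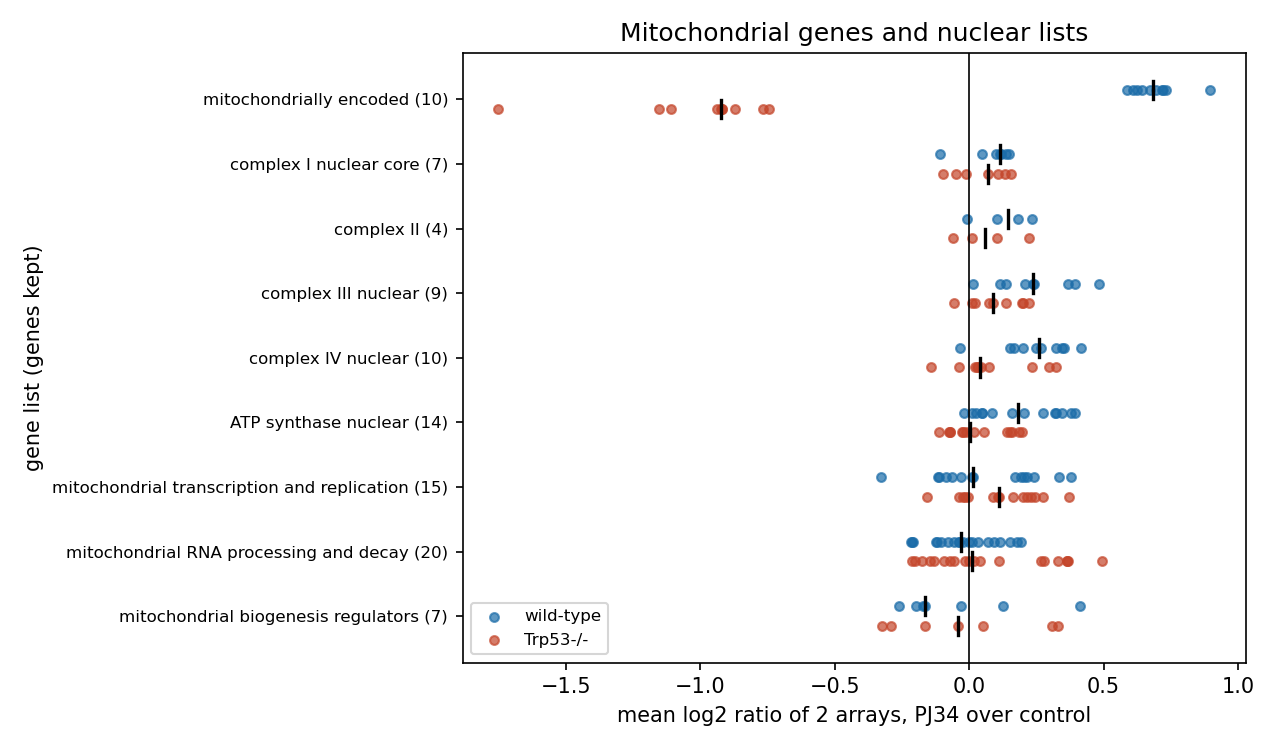
Mean log2 ratio of PJ34 over control over the 2 arrays of a genotype (horizontal axis) for the 10 mitochondrially encoded genes and the kept genes of 8 nuclear lists (rows, number of genes in parentheses), with a black tick at each median. The mitochondrially encoded genes lie at medians of 0.68 in wild-type (blue) and -0.92 in Trp53-/- (red), outside the range from -0.33 to 0.49 of the nuclear genes.

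As to the arrays themselves, the number of probes with a signal well above background ran from 21508 to 27159 over the 8 channels, no spot was saturated, and the 10 mitochondrial probes were well above background in both colors on all 4 arrays. Trp53 had control levels of 8.28 and 8.51 in wild-type and 7.56 and 7.82 in Trp53-/- and was well above background in every channel; whether its probe lies in the deleted part was not tested. All 8 stem/progenitor markers were well above background on all arrays. The log2 of their summed levels was between 16.95 and 17.51. Sums of other markers are given in the same way, and the brightest markers weigh most in them. Control levels of Nes and Pax6 were higher on both Trp53-/- arrays than on both wild-type arrays, and those of Msi1, Fabp7 and Prom1 lower. Those of Sox2, Vim and Notch1 overlapped. The summed level of 5 oligodendrocyte markers was between 10.95 and 11.69 in wild-type and between 12.33 and 13.22 in Trp53-/-, so it moved with genotype, and the part of such shifts in the level differences above was not tested. The summed level of 6 neuron markers moved the other way, with 12.89 to 13.58 in wild-type and 12.67 to 12.83 in Trp53-/-, as did that of 4 microglia markers (10.43 to 10.89 and 9.75 to 10.07), of which Csf1r alone was well above background. Among the neuron markers, however, Tubb3, Dcx, Rbfox3 and Stmn2 had higher control levels on both Trp53-/- arrays than on both wild-type arrays. The control level of Snap25 was lower, and that of Map2 overlapped. The sums of 5 astrocyte markers overlapped between genotypes (up to 11.67 in wild-type and from 11.38 in Trp53-/-). Single astrocyte markers differed, however. The control level of Gfap was 6.44 and 7.23 in wild-type and 9.22 and 9.21 in Trp53-/-. That of S100b was 7.87 and 8.04 in wild-type and 9.73 and 9.97 in Trp53-/-. Aqp4 was also higher on both Trp53-/- arrays, while Aldh1l1 and Gja1 overlapped. The sums overlapped for fibroblasts (7.78 to 8.04) and red cells (7.10 to 7.27) too. Those of 3 endothelium markers lay between 7.92 and 8.01 in wild-type and between 7.78 and 7.88 in Trp53-/-. The markers Aif1, Cx3cr1 and Ptprc of microglia, Cdh5 and Cldn5 of endothelium, Col1a1 and Dcn of fibroblasts and Hbb-b1 of red cells were not well above background in any channel. Trp53-/- replicate 2 stood apart by sex-linked genes, with log2 ratios of -3.08 for Xist, 3.12 for Ddx3y and 4.22 for Eif2s3y, against -0.20 to 0.84 on the other 3 arrays. On that array Xist was well above background in the control channel only, and Ddx3y and Eif2s3y in the PJ34 channel only. Its control and PJ34 RNA thus differed in sex-linked transcripts. In the mitochondrial ratios of that array, a difference between embryos and a PJ34 effect cannot be told apart. Ddx3y and Eif2s3y also moved with genotype: they were well above background in all wild-type channels, with control levels of 8.25 and 8.06 and of 8.96 and 8.47, but in Trp53-/- only in the PJ34 channel of replicate 2, with control levels of 6.04 and 6.17 and of 6.01 and 6.24. The part of these shifts in the mitochondrial ratios and level differences was not tested.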

How the data were processed

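The authors scanned the arrays with Agilent Feature Extraction (10.7.3.1, per the submitters' processing notes). The deposited intensity values used here are each spot's mean brightness and the median of its local background in each color. The deposited log10 ratios of the same software were used only as an alternative, converted to log2. A table of 4 columns named by number only was not used. Positions are on mm9, and RefSeq symbols were matched for 27235 of 55681 probes (48.9%).

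The members and lists were chosen with earlier results of these data known. The background was corrected by normexp (limma 3.58.1, R 4.3.3, offset 50), followed by within-array loess of the ratios, with no weight for control and outlier spots (228 to 276 outlier spots per array). The limma model had 1 mean for each genotype and used all 4 arrays. Storey's q used lambda from 0.05 to 0.95. A listed gene was read from its brightest kept probe. Levels were quantile normalized between arrays (Aquantile). The fit was tested on simulated ratios. The number of arrays, 2 per genotype, limits the precision.

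Genes were named by rule: all 10 members, other probes on the mitochondrial DNA, called list genes (at most 4 per list and contrast), the 5 nearest to COX1, Trp53 and sex-linked genes. No list gene was called, and those named were picked after their values were seen, as was ND3. The alternatives were no background correction, an offset of 16, the scanner software's ratios, median centring, scaling between arrays, no or a strict filter on dim probes, a fit of each genotype by itself, a block for the replicate number, Benjamini-Hochberg adjustment, no limit on the fold, leaving out each array, and, for levels, no quantile normalization and processed signals scaled to the 75th percentile. Slides and scans could not serve as a block, since each array had its own.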

Additional observations from a re-analysis of the deposited data

Results flagged for a closer look

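For all 10 mitochondrially encoded genes, both wild-type arrays lay on one side of a log2 ratio of 0 and both Trp53-/- arrays on the other, and no test of this difference is given as evidence, because the ratios served to choose the genes. The log2 ratio in wild-type minus that in Trp53-/- was 2.36 for COX1, 1.75 for COX2, 1.53 for COX3, 1.88 for CYTB, 1.55 for ND1, 1.64 for ND2, 1.77 for ND4, 1.42 for ND4L, 1.46 for ND5 and 1.66 for ATP8.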

How the results depend on the processing

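Of the values recomputed under alternatives, 149 medians and counts were classed as unchanged, 16 as moved and 1 as reversed. For the ratios of single genes, 481 were classed as unchanged, 12 as moved and 7 as reversed. Unchanged did not require an equal size. COX1 in Trp53-/- (SD 1.49) was so classed though it went from -1.75 to -0.62 with median centring. The filters on dim probes, a fit of each genotype by itself, the replicate blocks, the adjustment and the limit on the fold cannot alter a mean ratio. Part of the unchanged ratios was thus fixed in advance. With median centring, the median ratio was 1.47 in wild-type and 0.11 in Trp53-/-, where its sign reversed, as did that of COX2 (0.10), COX3 (0.23), ND2 (0.14), ND4 (0.18), ND4L (0.27), ND5 (0.13) and ATP8 (0.083). All of these lay below the median of all kept probes, which was 0.57 in Trp53-/- under that setting. The number of mitochondrial genes called was then 10 in wild-type, 0 in Trp53-/- and 0 in the difference, that of nuclear list genes 17 and 42 in the genotypes, and over all kept probes 1384 were called higher and 3 lower in wild-type and 4017 and 4 in Trp53-/-, against 71 and 47 and 19 and 67. The cause was not tested. With the scanner software's ratios 0 mitochondrial genes were called in Trp53-/- and in the difference, and with an offset of 16 0 in the difference, while the median difference was 1.65 and 1.64. Without the limit on the fold, 9 passed in wild-type and 10 in Trp53-/-, and 21 and 13 nuclear genes. Leaving out 1 array gave 0 to 2 called in wild-type, the highest without wild-type replicate 1, and 0 to 9 in Trp53-/-, the highest without replicate 1 and the lowest without replicate 2. The median ratio was then 0.45 to 0.96 in wild-type, -1.35 to -0.53 in Trp53-/- and 1.24 to 2.08 in the difference. A genotype left with 1 array is assumed to vary like the other. The median level difference stayed positive in control (0.44 to 0.87) and negative in PJ34-treated cells (-1.53 to -0.53) under all alternatives run.

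Replicate numbers did not pair the arrays: the deviations of same-numbered arrays had a correlation of -0.17 across 27036 probes, which are not independent replicates. With the replicate number as a block, 0, 3 and 10 mitochondrial genes were called in wild-type, in Trp53-/- and in the difference, with a median difference of 1.65, as without it. With the pairing crossed, chosen after seeing the data, the counts were also 0, 3 and 10.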
